A study of Mus musculus with 6 samples.

Results

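The 9 genes described here encode effector cytokines and chemokines, the secreted proteins by which cytotoxic lymphocytes act on other cells: *Ifng*, *Tnf*, *Lta*, *Ltb*, *Csf2*, *Xcl1*, *Ccl3*, *Ccl4* and *Ccl5*. They were chosen by symbol from a deposited table of 55450 genes, and each symbol matched 1 gene. All 9 passed the filter on low counts, as did 13171 genes in all. Bulk RNA was sequenced from lymphocytes that had been sorted out of the mammary gland in late pregnancy (E18.5). There were 3 libraries of CD8 beta+ T cells and 3 of double negative (DN) NK1.1+ cells, which the labels call lymphocytes in one field and T cells in another. The labels do not name the markers that DN cells lack, and the sources used here do not give strain, age or pooling of animals. The study's question was whether lymphocytes of an unconventional kind, resident in the epithelium of the gland, regulate how epithelial and basal cells differentiate. The comparison made here is DN NK1.1+ against CD8 beta+.

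Interferon gamma, the product of *Ifng*, activates macrophages and raises antigen presentation. *Tnf*, *Lta* and *Ltb* encode related ligands of the TNF superfamily: TNF and lymphotoxin alpha form homotrimers that bind the TNF receptors, and lymphotoxin alpha with lymphotoxin beta forms a membrane heterotrimer that binds the lymphotoxin beta receptor. *Csf2* encodes GM-CSF, a growth factor of myeloid cells. *Xcl1* encodes lymphotactin, which attracts the cross-presenting dendritic cells that carry the receptor XCR1. *Ccl3*, *Ccl4* and *Ccl5* encode CC chemokines that attract T cells and monocytes, and CCL3 and CCL5 bind the receptor CCR1. NK cells and memory CD8 T cells hold transcripts of several of these genes before stimulation and release the proteins on activation. Bulk values of transcripts do not measure secretion.

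Libraries held between 7961360 and 14367299 counts. The unit below is CPM, the count scaled to a library total of 1000000 with TMM factors, unless a value is given per kilobase (kb). CD8 beta+ libraries are given before DN NK1.1+ libraries, in the order of their replicate numbers. The CD8 T cell markers *Cd8a*, *Cd8b1*, *Cd3d*, *Cd3e*, *Trac* and *Thy1* were all lower in DN NK1.1+ libraries, and *Thy1* fell from 1103 ± 87.2 to 517 ± 72.4 CPM (SD, n = 3). All 7 markers of NK and innate lymphoid cells were higher, with summed levels of 223 to 315 CPM and of 2613 to 2806 CPM. The 4 tested of 5 gamma-delta T cell markers were higher, at sums of 42.0 to 56.2 CPM and of 280.2 to 323 CPM. The cells were sorted on CD8 beta and NK1.1, so these lists are not independent of the sort. Replicate 3 of each group held the highest sum of basal epithelial genes, at 119 and 166 CPM, where the other 4 libraries held 8.77 to 16.97 CPM. Luminal epithelial and milk genes gave larger sums in every library, at 777, 492 and 649 CPM and at 271, 754 and 1570 CPM. In bulk samples, fewer cells of a type and less RNA per cell cannot be told apart.

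Of the 9 genes, 4 passed the test at an adjusted p below 0.05 (edgeR's quasi-likelihood test, Benjamini-Hochberg over all 13171 genes), where 13.8% of all tested genes did. The chemokine genes *Xcl1* and *Ccl3* rose, beside 7.84% of all genes called higher. *Tnf* and *Ltb*, both of the TNF superfamily, fell, beside 5.99% of all genes called lower. *Ifng*, *Ccl5*, *Ccl4*, *Lta* and *Csf2* did not pass. In 6 genes the values of the groups did not overlap, against 30.6% of all tested genes: *Xcl1*, *Ccl3* and *Csf2* lay higher (16.0% of all) and *Tnf*, *Ltb* and *Ccl5* lower (14.6% of all). The few counts of *Csf2* lay apart only after scaling, with 13 in CD8 beta+ replicate 2 and 12 in DN NK1.1+ replicate 1. The median log2 fold change of the 9 genes was −0.31 and that of all tested genes was −0.00331. The number called lower was 1 without CD8 beta+ replicate 1, and 3 without DN NK1.1+ replicate 2 (*Ifng* then passed) or 3 (*Ccl5* then passed). It was also 3 with limma-voom, and 4 with upper quartile scaling, no filter, DESeq2 or the replicate number as a block. *Ccl5* passed too with the libraries numbered 3 left out of both groups.

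**Figure D1:**
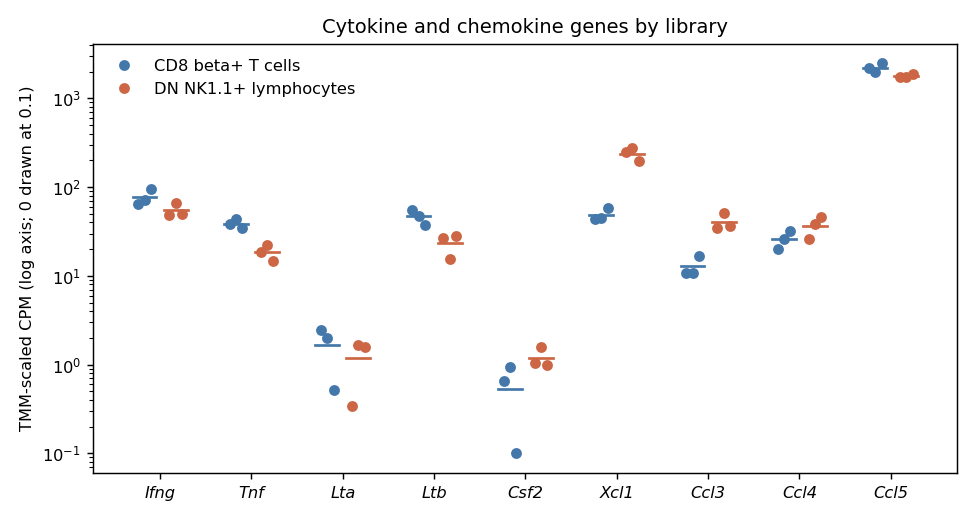
CPM of the 9 genes in each library on a log axis, with CD8 beta+ T cells in blue and DN NK1.1+ lymphocytes in orange, and lines at the group means (n = 3). *Xcl1* and *Ccl3* points lie higher in DN NK1.1+ libraries, *Tnf* and *Ltb* points lie lower, and *Ccl5* lies at 1732 to 2469 CPM over both groups.

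*Xcl1* showed the largest fold change of the 9 genes among those that passed. On build mm10 it lies on chromosome 1 from 164931644 to 164935527, on the minus strand. It was at 43.6, 45.3 and 58.0 CPM in CD8 beta+ libraries and at 246, 273 and 197 CPM in DN NK1.1+ libraries. The lowest DN NK1.1+ library held more than 3 times the level of the highest CD8 beta+ library. The group means were 48.9 ± 7.85 and 238 ± 38.3 CPM (SD, n = 3), which is 4.87-fold higher in the fit (log2 fold change 2.28, SE 0.142, edgeR adjusted p = 7.73e-08). The noncoding gene *Gm20743* on the other strand shares 98 exon bases with *Xcl1*, and it had 2 to 18 counts where *Xcl1* had 336 to 3260. Of 7 markers of mast cells and basophils, 2 were tested and both rose, beside 7.84% of all tested genes. The list summed to 0.308 to 0.519 CPM and to 15.2 to 22.3 CPM. Among them the chymase gene *Cma1* rose from 0.0865 ± 0.150 to 12.5 ± 0.782 CPM, while *Fcer1a* had 0 counts in all libraries but DN NK1.1+ replicate 1. *Ms4a2* and *Mcpt8* had 2 and 5 counts, all in DN NK1.1+ replicate 2. The part of such cells in the values of *Xcl1* and *Ccl3* was not tested.

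The 250 bases before the start of *Xcl1* (chr1:164935523-164935772, minus strand) and of *Ccl3* (chr11:83649379-83649628, minus strand) are shown because these genes rose, and those of *Tnf* (chr17:35202008-35202257, minus strand) because it fell. All are from RefSeq on GRCm38.p6 and read 5′ to 3′ along the gene, with motifs in capitals.
Xcl1: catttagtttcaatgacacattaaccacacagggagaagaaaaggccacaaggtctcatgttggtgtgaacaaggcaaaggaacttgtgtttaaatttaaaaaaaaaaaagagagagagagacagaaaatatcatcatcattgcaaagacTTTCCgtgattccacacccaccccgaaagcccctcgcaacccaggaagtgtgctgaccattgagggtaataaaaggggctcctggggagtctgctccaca
Ccl3: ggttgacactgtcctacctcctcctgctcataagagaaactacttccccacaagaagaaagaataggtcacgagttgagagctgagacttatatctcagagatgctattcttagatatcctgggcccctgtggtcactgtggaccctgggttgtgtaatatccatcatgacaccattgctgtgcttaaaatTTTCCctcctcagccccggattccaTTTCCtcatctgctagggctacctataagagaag
Tnf: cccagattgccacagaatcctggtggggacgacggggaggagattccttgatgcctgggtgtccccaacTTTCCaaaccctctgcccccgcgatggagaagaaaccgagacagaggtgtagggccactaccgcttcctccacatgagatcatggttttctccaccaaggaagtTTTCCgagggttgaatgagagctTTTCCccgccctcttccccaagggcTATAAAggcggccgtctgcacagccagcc
Capitals mark the core GGAAA of NFAT sites, written as TTTCC on the other strand, and the TATA box TATAAA. RefSeq windows matched 7 of the 9 genes, all but *Ccl4* and *Ccl5*. RefSeq starts can differ from the gene places given in this report. The *Csf2* window, from 54249900 to 54250149, lies apart from the gene as placed below, so the bases next to that start were not searched. The *Ltb* window, from 35194257 to 35194506, reaches into the gene as placed below, and the *Xcl1* window reaches into that gene as placed above. The *Ccl3* window, from 83649379, lies apart from the gene, placed up to 83649355, so the bases between were not searched. The GGAAA core was in 7 of these 7 windows, and 55.6% of all 32817 windows of that length hold it on either strand. It occurs 3 times in the window of *Tnf*, 2 times in that of *Ccl3* and 1 time in that of *Xcl1*. TATAAA was in 3 windows, those of *Ifng*, *Tnf* and *Lta*, against 12.4% of all windows. It ends 24 bases before the start in *Tnf* and 25 in *Ifng*, but 162 in *Lta*. A consensus of NF-kappa-B was in the window of *Ltb* only, where its match on the other strand overlaps a GGAAA core, and 17.6% of all windows hold it. The forms TGANTCA (AP-1), TGACGTCA (CRE) and AGGTGTGA (T-box), searched on both strands, matched none of the 7 windows, and 6.75%, 1.55% and 1.12% of all windows hold them. A match to such short letters is not evidence of binding.

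*Ccl3* and *Ccl4* are neighbours, yet only the first passed the test. They lie on chromosome 11 at 83647844 to 83649355 (minus strand) and 83662584 to 83664683 (plus strand), 13228 bases apart with no protein-coding gene between them. *Ccl3* was at 10.8, 10.8 and 16.7 CPM in CD8 beta+ libraries and at 34.2, 50.8 and 36.9 CPM in DN NK1.1+ libraries. All 3 DN NK1.1+ values lay above the CD8 beta+ values. The rise was 3.18-fold, from 12.8 ± 3.44 to 40.6 ± 8.88 CPM (SD, n = 3; log2 fold change 1.67, SE 0.220, edgeR adjusted p = 7.61e-05). *Ccl4* was at 20.0, 26.1 and 31.9 CPM and at 26.2, 38.6 and 45.8 CPM. Its groups overlapped, and the log2 fold change of 0.50 had a 95% interval from 0.03 to 0.97 (edgeR adjusted p = 0.167). A fit with the replicate number as a block put *Ccl4* past the threshold (edgeR adjusted p = 0.0468).

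Macrophages also transcribe *Ccl3* and *Ccl4*. Of 10 markers of macrophages and monocytes, 2 rose, beside 7.84% of all tested genes. These were *Ccr2*, which NK and T cells also express, and *Csf1r*, which rose from 15.3 ± 3.77 to 28.2 ± 9.18 CPM. The call of *Ccr2* ended without any one of CD8 beta+ replicates 1 and 2 and DN NK1.1+ replicates 1 and 2 (edgeR adjusted p from 0.0586 to 0.151). The list summed to 222 to 323 CPM and to 307 to 407 CPM, so that the groups overlapped. Immediate early and stress genes, which dissociation of tissue can induce, were partly higher too. Summed, the list was at 1127 to 1351 CPM and at 1499 to 1883 CPM. Of 10 tested, *Atf3*, *Dusp1*, *Fos* and *Jun* rose, beside 7.84% of all tested genes. Their part in the values of *Ccl3* was not tested.

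*Ccl5*, for the chemokine RANTES, was by far the most abundant of the 9 transcripts in both groups. It lies on chromosome 11 from 83525778 to 83530518 on the minus strand, 117325 bases from *Ccl3*. Its levels were 2202, 1974 and 2469 CPM in CD8 beta+ libraries and 1757, 1732 and 1872 CPM in DN NK1.1+ libraries. Each DN NK1.1+ value lay below each CD8 beta+ value, but the gap between the groups was small beside the range of the CD8 beta+ values. Means were 2215 ± 248 and 1787 ± 74.9 CPM (SD, n = 3), and the log2 fold change of −0.31, with a 95% interval from −0.54 to −0.08, did not pass (edgeR adjusted p = 0.0709). The adjusted p ran from 0.00805 to 0.226 over the alternatives, and 7 of 16 placed it past the threshold. Per kb of exon, *Ccl5* ranked 28 of 13171 tested genes among CD8 beta+ values and 27 among DN NK1.1+ values.

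*Ifng* did not pass the test either. It was at 64.9, 70.7 and 94.1 CPM in CD8 beta+ libraries and at 48.3, 66.9 and 50.1 CPM in DN NK1.1+ libraries. DN NK1.1+ replicate 2 lay above CD8 beta+ replicate 1, so the groups overlapped. The log2 fold change was −0.47, with a 95% interval from −0.82 to −0.13 (SE 0.161, edgeR adjusted p = 0.0709). The call depended on the processing: 5 of 17 alternatives placed it past the threshold, and the adjusted p ran from 0.00538 to 0.371. Without DN NK1.1+ replicate 2 the log2 fold change was −0.64 (edgeR adjusted p = 0.0256). *Ifng* lies on chromosome 10 from 118441046 to 118445892 on the plus strand. The gene *Gm49751*, a transcript model of uncertain status on the same strand from 118441419 to 118444140, shares 336 exon bases with it. Reads from introns of *Ifng* can also fall in this model, and it had 257 to 507 counts where *Ifng* had 500 to 981. The sources used here do not say how the counting divided reads between them. With counts of both genes summed, levels were 98.2, 107 and 133 CPM and 75.4, 101 and 78.3 CPM (log2 fold change −0.41, edgeR adjusted p = 0.0659).

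The genes *Ltb*, *Tnf* and *Lta* lie side by side on chromosome 17, from 35194439 to 35196320 on the plus strand and from 35199381 to 35202007 and 35203165 to 35205351 on the minus strand. Between *Ltb* and *Tnf* are 3060 bases, and between *Tnf* and *Lta* 1157. *Tnf* was at 38.1, 43.3 and 34.6 CPM in CD8 beta+ libraries and at 18.4, 22.5 and 14.8 CPM in DN NK1.1+ libraries. The groups did not overlap. *Tnf* fell 2.09-fold, from 38.7 ± 4.38 to 18.6 ± 3.83 CPM (SD, n = 3; log2 fold change −1.06, SE 0.186, edgeR adjusted p = 0.001). *Ltb* was at 55.3, 47.6 and 37.5 CPM and at 26.7, 15.6 and 28.3 CPM. Its lowest CD8 beta+ value, in replicate 3, lay above all DN NK1.1+ values. *Ltb* fell 1.98-fold, from 46.8 ± 8.90 to 23.5 ± 6.89 CPM (SD, n = 3; log2 fold change −0.99, SE 0.220, edgeR adjusted p = 0.00845). Its call ended without CD8 beta+ replicate 1 (log2 fold change −0.86, edgeR adjusted p = 0.0503; 2.26e-07 to 0.0503 over the alternatives).

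*Lta* was close to the limit of counting, with 19, 28 and 5 counts in CD8 beta+ libraries against 4, 20 and 21 in DN NK1.1+ libraries. The CPM values were 2.46, 2.02 and 0.514 and 0.344, 1.67 and 1.59. The groups overlapped (log2 fold change −0.46, 95% interval −2.24 to 1.32, edgeR adjusted p = 0.804). The interval covers both a fall as large as that of *Tnf* and no change. B cells transcribe *Lta* and *Ltb* as well. Of 7 B cell markers, *Cd79b* fell and *Ighm* rose, and the others did not pass, where 13.8% of all tested genes did. The B cell marker *Ms4a1* was at 8.30, 15.1 and 2.77 CPM and at 3.53, 3.76 and 0.227 CPM, low in replicate 3 of each group. The part of B cells in the values of *Ltb* and *Lta* was not tested.

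*Csf2*, on chromosome 11 from 54247271 to 54249667 on the minus strand, was scarce in both groups. It had 5, 13 and 0 counts in CD8 beta+ libraries and 12, 19 and 13 in DN NK1.1+ libraries. The 0 of CD8 beta+ replicate 3 allows up to 0.308 CPM, counting error alone considered. Every DN NK1.1+ value, at 1.03, 1.59 and 0.984 CPM, lay above the CD8 beta+ values of 0.649, 0.937 and 0 CPM. At this depth no difference was resolved (log2 fold change 1.14, 95% interval −1.05 to 3.32, edgeR adjusted p = 0.560).

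**Figure D2:**
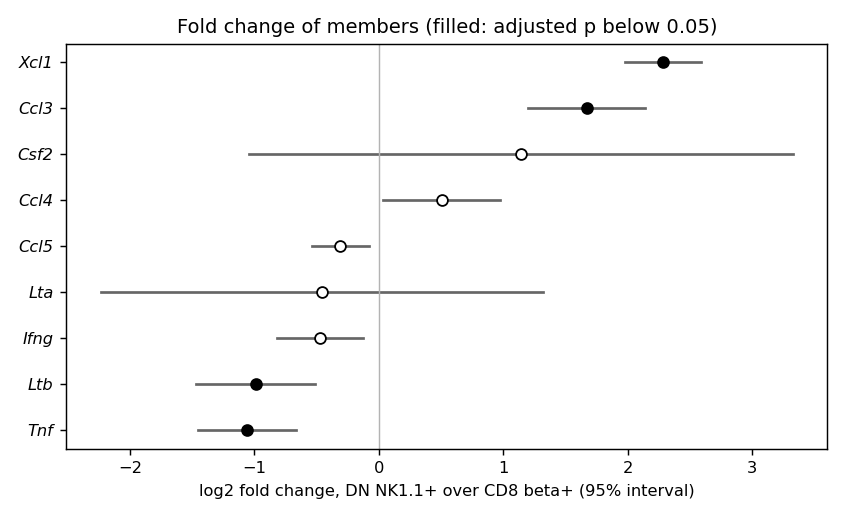
Log2 fold change of each of the 9 genes, DN NK1.1+ over CD8 beta+, with 95% intervals from edgeR. Filled points passed the test: *Xcl1* at 2.28, *Ccl3* at 1.67, *Ltb* at −0.99 and *Tnf* at −1.06. The intervals of *Lta* and *Csf2* span 0.

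Transcripts of many cytokines are short-lived through AU-rich elements, repeats of the pentamer ATTTA in the 3′ untranslated region to which decay proteins such as tristetraprolin bind. The 30 bases with the most such pentamers are shown for 4 genes that differ in their result: *Csf2* (chr11:54247329-54247358, minus strand), *Tnf* (chr17:35199679-35199708, minus strand), *Ifng* (chr10:118445330-118445359, plus strand) and *Ccl3* (chr11:83648085-83648114, minus strand). The sequences are from GENCODE M21 on mm10, and capitals mark the pentamer.
Csf2: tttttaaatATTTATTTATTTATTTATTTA
Tnf: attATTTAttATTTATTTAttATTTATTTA
Ifng: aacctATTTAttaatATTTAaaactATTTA
Ccl3: gactcttcacttgaaattttATTTAATTTA
In the longest annotated 3′ untranslated region, *Csf2* held 9 pentamers, *Tnf* 8, *Ifng* 6, *Ccl3* 5, *Lta* 3, *Ccl4* 2 and *Xcl1* 1. *Ltb* and *Ccl5* held none. Thus 7 of the 9 genes held the pentamer, where 65.7% of 20830 protein-coding genes do. By density these 7 genes stood above the median of 1.26 pentamers per kb over all protein-coding genes counted. *Csf2* had 28.4 per kb, *Ccl3* 12.2, *Tnf* 10.5, *Ifng* 9.51, *Xcl1* 7.09, *Ccl4* 6.62 and *Lta* 5.24. *Ltb* and *Ccl5*, with none, lay below it. The overlapping nonamer ATTTATTTA occurred in *Csf2* (5 times), *Tnf* (2 times) and *Lta* (1 time), and in 6.22% of the 20830 protein-coding genes.

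Compared per kb of exon, the order of the 9 genes differed between the groups. In CD8 beta+ libraries the mean levels were 2307 CPM per kb for *Ccl5*, 93.6 for *Xcl1*, 59.1 for *Ifng*, 39.4 for *Ccl4*, 30.9 for *Ltb*, 23.6 for *Tnf*, 16.7 for *Ccl3*, 1.20 for *Lta* and 0.661 for *Csf2*. Neighbours from *Ccl4* to *Ccl3* overlapped each other in their library values, as did *Lta* and *Csf2*. In DN NK1.1+ libraries the means were 1862 CPM per kb for *Ccl5*, 456 for *Xcl1*, 55.9 for *Ccl4*, 53.0 for *Ccl3*, 42.6 for *Ifng*, 15.5 for *Ltb*, 11.3 for *Tnf*, 1.502 for *Csf2* and 0.869 for *Lta*. Library values of *Ccl4*, *Ccl3* and *Ifng* overlapped, and so did those of *Ltb* and *Tnf*. *Ccl3* was thus the seventh of the 9 for CD8 beta+ cells, but the fourth for DN NK1.1+ cells.

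Shares within the 9 genes do not depend on scaling between libraries, but they do depend on the length taken for each gene. *Ccl5* made up 90.5%, 89.0% and 89.6% of their summed level per kb in CD8 beta+ libraries and 74.6%, 71.3% and 77.6% in DN NK1.1+ libraries. The share of *Xcl1* was 3.29%, 3.75% and 3.86% and then 19.2%, 20.6% and 14.99%. Without *Ccl5*, the share of *Xcl1* among the other 8 genes was 35.2% ± 1.58 for CD8 beta+ cells against 71.4% ± 4.33 for DN NK1.1+ cells (SD, n = 3). On that base *Ifng* went from 22.2% ± 1.82 to 6.67% ± 0.589, and *Tnf* from 9.03% ± 1.75 to 1.77% ± 0.146. The groups did not overlap in any of these shares. They are shares of a whole, so a larger share of *Xcl1* lowers the others by construction.

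**Figure D3:**
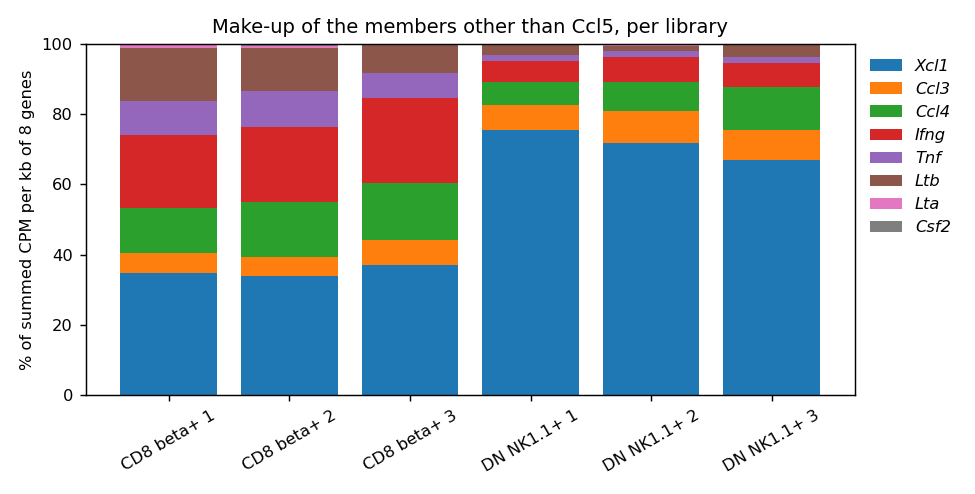
Share of each gene in the summed CPM per kb of the 8 genes other than *Ccl5*, 1 bar per library. *Xcl1* takes 33.9% to 37.0% in CD8 beta+ bars and 66.9% to 75.5% in DN NK1.1+ bars.

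Ratios of counts within a library gave the same contrast for pairs of genes, chosen after their values were seen and therefore not tested. *Xcl1* to *Ifng* was 0.672, 0.640 and 0.616 in CD8 beta+ libraries and 5.08, 4.07 and 3.93 in DN NK1.1+ libraries. *Xcl1* to *Tnf* was 1.14, 1.04 and 1.67 and then 13.3, 12.1 and 13.3. *Ccl3* to *Ccl4* was 0.539, 0.414 and 0.526 and then 1.30, 1.31 and 0.805. In these 3 pairs the groups lay apart. *Tnf* to *Ifng* was 0.588, 0.613 and 0.368 and then 0.381, 0.336 and 0.296, with groups that overlapped. *Ltb* to *Tnf* was 1.45, 1.098 and 1.08 and then 1.45, 0.695 and 1.91, with groups that overlapped.

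**Figure D4:**
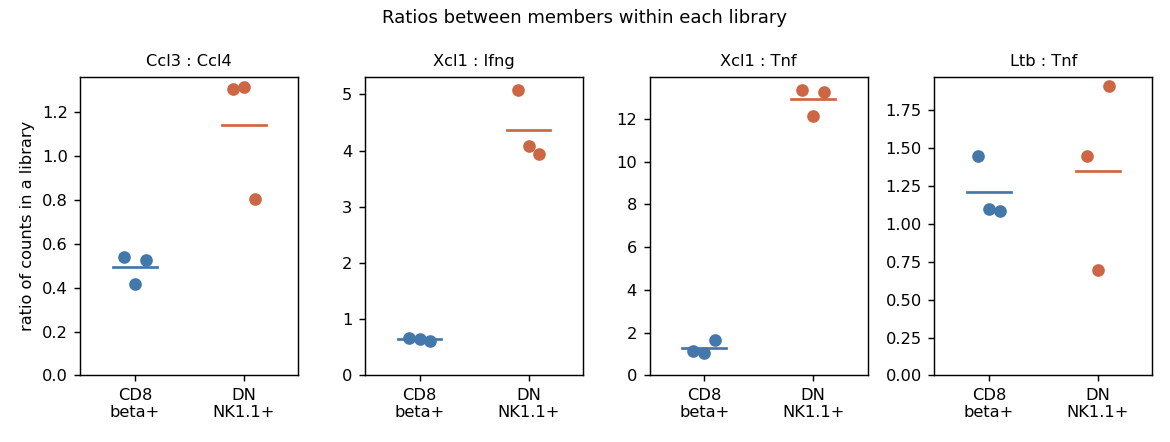
Ratio of counts of 2 genes in each library, with lines at group means (n = 3) and axes from 0. The *Xcl1* ratios and the *Ccl3* to *Ccl4* ratio lie higher in all DN NK1.1+ libraries, while the *Ltb* to *Tnf* ratio runs from 0.695 to 1.91 there and from 1.08 to 1.45 in CD8 beta+ libraries.

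Of 14 genes for receptors of these proteins, 12 were tested and 1 passed, beside 13.8% of all tested genes. *Tnfrsf1a*, for TNF receptor 1, was at 27.5, 23.3 and 29.9 CPM and at 48.3, 54.4 and 56.3 CPM. It rose 1.98-fold (log2 fold change 0.98, SE 0.149, edgeR adjusted p = 2.85e-04), opposite in direction to *Tnf*. *Tnfrsf1b*, for TNF receptor 2, was at 283 ± 22.1 and 275 ± 8.09 CPM (95% interval of the log2 fold change −0.24 to 0.16). *Ifngr1*, for the ligand-binding chain of the interferon gamma receptor, was at 631 ± 38.9 and 718 ± 18.7 CPM (edgeR adjusted p = 0.229). *Ifngr2*, for the signalling chain, was at 2.42 ± 0.406 and 2.58 ± 0.739 CPM. *Tnfrsf14* was at 14.2 ± 3.39 and 14.7 ± 1.97 CPM.

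A further 6 tested receptor genes were low. *Ltbr*, *Csf2ra*, *Csf2rb*, *Csf2rb2* and *Ccr1* ran from 0 to 5.59 CPM, and *Ccr3* from 0 to 7.09 CPM, with the highest value in CD8 beta+ replicate 3. *Ccr3* did not pass (log2 fold change −2.76, edgeR adjusted p = 0.156), but it did with no filter, with DESeq2, with the replicate block and without DN NK1.1+ replicate 3 (adjusted p from 0.00983 to 0.0387). *Xcr1*, the receptor of XCL1 and a marker of dendritic cells, was at 0 counts in every CD8 beta+ library. Its DN NK1.1+ libraries held 13, 1 and 7 counts. Pooled over the libraries, this is at least 5.96-fold higher when the other group is set to a floor of 3 counts in all. The pooled value does not consider the spread between libraries, and the 1 count of DN NK1.1+ replicate 2 shows no rise by itself. *Xcr1* was too low for the test. *Ackr2*, a scavenger of CC chemokines, had 0 counts in all 6 libraries.

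**Figure D5:**
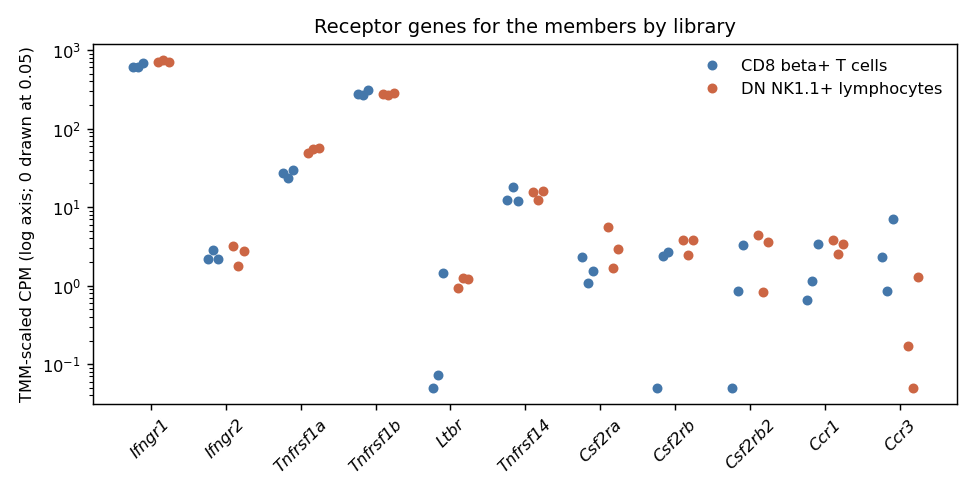
CPM of the tested receptor genes named in the text in each library on a log axis (blue, CD8 beta+ T cells; orange, DN NK1.1+ lymphocytes). *Tnfrsf1a* is the gene that passed the test, with 23.3 to 29.9 CPM and 48.3 to 56.3 CPM.

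Few other cytokine and chemokine genes were transcribed at a level that could be tested. Of 20 other cytokines, 7 were tested, and 2 fell, beside 5.99% of all tested genes called lower. *Il16*, for a chemoattractant of CD4-bearing cells, fell from 103 ± 12.04 to 68.0 ± 7.42 CPM (log2 fold change −0.60, edgeR adjusted p = 0.00314). *Mif*, for macrophage migration inhibitory factor, fell from 47.5 ± 2.15 to 34.3 ± 4.59 CPM (log2 fold change −0.47, edgeR adjusted p = 0.0431). The call of *Mif* ended without scaling beyond library size and without CD8 beta+ replicate 1 or 2 or DN NK1.1+ replicate 1 or 2 (edgeR adjusted p from 0.0791 to 0.176). *Il3*, *Il4*, *Il5*, *Il9*, *Il13*, *Il17a* and *Il24* had 0 counts in all libraries. *Il22* had 10 counts, all in DN NK1.1+ replicate 2, and *Il2* ran from 0.753 to 3.71 CPM without passing. Of 32 other chemokines, 9 were tested and 2 rose, beside 7.84% of all tested genes called higher. *Ccl9* rose from 2.47 ± 0.625 to 6.89 ± 0.916 CPM (log2 fold change 1.47, edgeR adjusted p = 0.0210), and *Cxcl10*, an interferon-induced ligand of CXCR3, from 7.24 ± 1.76 to 13.6 ± 3.12 CPM (log2 fold change 0.91, edgeR adjusted p = 0.0402). This pair did not stay called without single libraries: the count was 0 without CD8 beta+ replicate 1 or DN NK1.1+ replicate 2, and 1 without any one of the other 4. *Ccl22* was at 0 counts in all CD8 beta+ libraries and had 17 counts over the DN NK1.1+ ones. Pooled, this is at least 4.82-fold higher by a floor of 3 counts, with the spread between libraries not considered.

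Receptors that induce these cytokines in NK and T cells were mostly higher. The list holds 10 genes, of which 6 rose and 1 fell, beside 7.84% and 5.99% of all tested genes. Its median log2 fold change was 1.15. *Il12rb2*, for the signalling chain of the IL-12 receptor, rose from 67.4 ± 12.3 to 303 ± 27.6 CPM. *Il18rap* rose from 110 ± 4.40 to 233 ± 15.6 CPM. *Il12rb1*, *Il18r1* and *Cd226* did not pass (edgeR adjusted p = 0.174, 0.0660 and 0.504). The activating receptor gene *Ncr1* was at 0.484 ± 0.182 CPM and rose to 273 ± 20.5 CPM. *Fcgr3*, for an Fc receptor of NK cells, went up from 5.18 ± 1.13 to 38.0 ± 3.53 CPM. Both are NK cell genes, and *Il2rb* and *Klrk1* rose too. The cells were sorted on the NK cell marker NK1.1, so this list is not independent of the sort. *Il15ra* fell, at 15.4, 15.9 and 18.9 CPM and at 7.83, 7.78 and 7.49 CPM.

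Transcription factors that act on cytokine genes moved in both directions, 4 of 21 higher and 6 lower. Over all tested genes, 7.84% were called higher and 5.99% lower. *Irf8* rose from 16.2 ± 2.42 to 145 ± 8.67 CPM, and *Irf4* fell from 88.4 ± 12.4 to 14.7 ± 2.59 CPM. *Rel*, for an NF-kappa-B subunit, rose from 147 ± 18.8 to 246 ± 18.501 CPM, and *Nfatc2* fell from 230.2 ± 4.26 to 153 ± 7.20 CPM. The T-box factors that drive *Ifng* did not pass: *Tbx21* was at 160 ± 36.0 and 230 ± 35.6 CPM (edgeR adjusted p = 0.0572) and *Eomes* at 172 ± 2.39 and 189.6 ± 10.1 CPM (edgeR adjusted p = 0.392).

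Of 12 regulators of cytokine mRNA decay, 2 rose and 1 fell, beside 7.84% of all tested genes called higher and 5.99% called lower. *Zfp36*, for tristetraprolin, rose from 89.4 ± 10.2 to 133 ± 22.3 CPM (log2 fold change 0.57, edgeR adjusted p = 0.00849), and *Zfp36l1* rose too. *Zc3h12d*, of the regnase family, fell from 22.1 ± 1.08 to 5.85 ± 0.877 CPM (log2 fold change −1.91, edgeR adjusted p = 2.34e-05). The number of risers was 0 without CD8 beta+ replicate 1 and 1 without DN NK1.1+ replicate 2. Of 5 genes for processing of the proteins, 4 were tested and 1 fell, beside 5.99% of all tested genes. This was *Dpp4*, for a peptidase that trims chemokines, which went from 107 ± 2.67 to 29.9 ± 6.37 CPM (log2 fold change −1.85, edgeR adjusted p = 4.19e-07). *Adam17*, for the protease that releases TNF from the membrane, was at 91.7 ± 2.09 and 101 ± 11.1 CPM.

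The genes most like each member in their pattern were found by the root mean square difference of centred log2 CPM over the 6 libraries, among 8811 protein-coding genes with a mean of at least 5 CPM. The nearest to *Xcl1* was *Il12rb2*, at a difference of 0.0896, followed by *Wwc2* at 0.0970. *Ccl4* was nearest to *Il12rb1*, for the other chain of the IL-12 receptor, at 0.0764, and to *Dok2* at 0.0963. *Ccl5* was nearest to *Uqcrc2* (0.0115) and *Elf4* (0.0204), and *Ifng* to *Dtymk* (0.0398) and *Dguok* (0.0740). For *Tnf* the nearest were *Dgka* and *Got1*, for *Ltb* *Atg16l2* and *Rflnb*, and for *Ccl3* *Zfp568* and *Akr1e1*, at 0.113 to 0.162. *Lta* and *Csf2*, with few counts, had no gene closer than 0.328 and 0.393. With 6 libraries in 2 groups, such likeness is largely the size of the group difference, and it is given as a description.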

How the data were processed

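Bulk RNA of lymphocytes sorted from mammary glands was sequenced in 6 libraries prepared with a mouse kit from Tecan, per the labels. The deposited values are expected counts per gene: the authors' unit was inferred from the values, which are mostly whole numbers with totals that differ between libraries. Build mm10 and Cell Ranger 7.1.0, a single-cell tool, are listed in the submitters' processing notes. The sources used here do not give the bulk aligner, counting tool, annotation or use of strand.

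Counts were rounded and tested with edgeR 4.0.16 in R 4.3.3 (robust quasi-likelihood fit, group alone, TMM, minimum count 10 and minimum total 15, threshold 0.05, two-sided). Standard errors came from the F statistic. The fit was also run on simulated counts as a check of the code, and no result in this report rests on that run. Places and union exon lengths came from GENCODE M21. Whether libraries of a group came from separate animals is not stated, and p-values therefore reflect only the spread between these samples, possibly a technical one. Members of a group differed beyond sampling noise, with chi-square values per degree of freedom from 9.07 to 23.5.

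The 9 genes, 7 lists of related genes and 13 marker lists were chosen with earlier results of these data known. Genes named are the 9 members, all tested receptors (1 of them is not reported here), in each list the 2 called genes that changed most, given a mean of 5 CPM or more in the higher group, the top marker of each marker list and the 2 genes nearest in pattern to each member. Others are examples chosen after their values were seen. Over all tested genes, 13.8% were called. Marker lists gave these called counts beyond those in the report: 1 of 4 tested CD4 T cell markers (*Ctla4*, lower), 1 of 7 luminal markers (*Epcam*, higher), 1 of 4 stromal and endothelial markers (*Pecam1*, higher), and no call among 3 tested neutrophil, 4 dendritic cell and 4 basal markers. At an unadjusted p under 0.05 these last numbered 0, 2 and 0, and 0, 1 and 0 with DESeq2 1.42.0. Alternatives were other scalings and filters, a fit that was not robust, DESeq2, limma-voom (limma 3.58.1), a replicate block, each library left out, and other transcript lengths. A pair was added after seeing the data: summed counts of *Ifng* and *Gm49751*, and libraries numbered 3 left out of both groups.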

Additional observations from a re-analysis of the deposited data

How the results depend on the processing

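*Xcl1*, *Ccl3* and *Tnf* kept their direction and their call under all 16 alternatives, with log2 fold changes of 2.17 to 2.54, 1.47 to 1.98 and −1.23 to −0.92. *Ltb* ran from −1.28 to −0.77 and lost its call without CD8 beta+ replicate 1. *Ifng* passed with upper quartile scaling (−0.50), no filter (−0.48), DESeq2 (−0.48), the replicate block (−0.47) and without DN NK1.1+ replicate 2 (−0.64), and *Ccl5* with the first 4 of these settings (−0.34, −0.32, −0.31 and −0.30), with limma-voom (−0.30), without DN NK1.1+ replicate 3 (−0.34) and without the libraries numbered 3 (−0.26). *Ccl4* passed with the replicate block alone (0.50). The number of members called lower was 4 with upper quartile scaling, no filter, DESeq2 and the block, and 3 with limma-voom. The cause was not tested. Leaving out single libraries gave ranges of −0.64 to −0.31 for *Ifng*, −0.39 to −0.23 for *Ccl5*, −1.14 to −0.77 for *Ltb* and 1 to 3 for the members called lower. Over all tested genes it gave 681 to 1093 higher and 499 to 883 lower, lowest without CD8 beta+ replicate 1, against 1033 and 789 with all libraries.

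For the lists of related genes, 1 receptor gene was called lower with no filter, DESeq2 and the block, and 2 higher without the libraries numbered 3. Other cytokines had 1 gene higher with no filter, DESeq2, limma-voom, a fit that was not robust, the block and without the libraries numbered 3, and 1 lower by library size only. Other chemokines had 1 higher without the libraries numbered 3. With single libraries left out, counts ran from 0 to 1 for receptors lower, 0 to 1 for other cytokines higher, 1 to 2 for other cytokines lower, 0 to 1 for other chemokines higher and 0 to 3 for decay regulators higher. Genes that were not called turned direction as follows. Without the libraries numbered 3, values were −0.0495 for *Ifngr2*, −0.12 for *Tnfrsf14*, 0.00947 for *Tnfrsf1b*, −0.45 for *Csn2* and −0.40 for *Acta2*. *Tnfrsf1b* was 0.00561 by library size only and *Acta2* −0.10 with the block. Single libraries left out gave −0.0874 to 0.30 for *Ifngr2*, −0.0656 to 0.26 for *Tnfrsf14*, −0.0841 to 0.0160 for *Tnfrsf1b*, −0.47 to 0.82 for *Csn2*, −2.13 to 1.92 for *Acta2*, −0.47 to 0.23 for *Llgl2* and −0.83 to 0.13 for *Bcl9*.

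Same-numbered libraries deviated from their group means with correlations of −0.0500, 0.189 and 0.256, and CD8 beta+ replicate 1 correlated best with DN NK1.1+ replicate 2, so the numbers were not taken as pairs. The replicate block called 1137 genes higher and 945 lower. Depth limits *Lta* and *Csf2*, where 1 count was worth 0.0721 to 0.130 CPM.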
